A study of Homo sapiens with 11 samples.

Results

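The HOX genes are 39 transcription factor genes that lie in 4 clusters, HOXA, HOXB, HOXC and HOXD. They were taken here as every gene in the RNA tables whose symbol is HOX, a cluster letter and a number, which gave 39 of 57815 listed genes: 11 in HOXA, 10 in HOXB, 9 in HOXC and 9 in HOXD. HOX proteins bind DNA through a homeodomain, and the genes of a cluster are numbered in the order of their position, with like numbers in different clusters being paralogues. In the embryo the low-numbered genes act toward the head and the high-numbered genes toward the tail and the limb ends, and cells of adult tissues keep part of that pattern. The fibroblasts of the lung are known for low- and mid-numbered genes, HOXA5 among them, and Polycomb proteins keep silent HOX genes off while trithorax proteins hold active ones on.

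The study compared chromatin structure and gene expression in 3 cultured human lung cell lines. DMS153 and H209 (NCI-H209) are labelled small lung carcinoma lines, and MRC5 (MRC-5) is labelled a normal lung fibroblast and served as the reference. No group was treated, all lines were grown in the same serum-containing medium, and MRC5 is the only line that is not a carcinoma, so a difference to it cannot be told apart from one between individuals or between cell types. RNA-seq libraries numbered 3 for DMS153, 2 for H209 and 3 for MRC5, and chromatin contacts were mapped by Hi-C in 1 library of each line. The DMS153 libraries of RNA carry the spelling DM153 in their titles. Nothing in the labels says that replicates came from separate cultures, so a p-value here reflects the spread among these libraries alone, and that spread may be technical. In RNA from whole cultures, fewer cells that express a gene and less of its RNA in each cell cannot be told apart.

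The labelled cell types were checked against markers. A marker was counted for a line when every library of that line stood at 1 FPKM or more. All 7 neuroendocrine markers stood at 1 FPKM or more in both carcinoma lines and none did in MRC5, where INSM1, NEUROD1 and NKX2-1 were among those listed at 0. All 7 fibroblast markers passed that level in MRC5 (summed to between 7451 and 8295 FPKM), against 1 in DMS153 (6.98 to 8.70) and 2 in H209 (27.2 to 32.3). Of 9 markers of leukocytes, endothelium and basal or alveolar epithelium, none passed it in every library of DMS153 or of H209. They summed to 0.975 to 2.34 FPKM in DMS153 and 2.49 to 3.046 in H209. The alveolar marker SFTPB passed 1 FPKM in some libraries, at 0.312 to 1.58 in DMS153 and 0.678 to 1.14 in H209. In MRC5 CD68, a lysosomal gene, passed it at 22.1 to 33.3 FPKM and made up nearly all of the sum of 22.1 to 33.4, while the leukocyte marker PTPRC was at most 0.0514. FPKM counts fragments relative to transcript length and to the mapped fragments of the library, so levels of different genes can be set beside each other. Read totals are not in the tables, so depth is unknown. The tables give a confidence interval for each value, whose half-width had a median of 10.8% of the value for HOX genes at 1 to 10 FPKM and 5.73% at 10 to 100 FPKM. MicroRNA loci held 39.4 to 43.7% of the summed FPKM in the DMS153 libraries and at most 0.0192% in the others.

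To show what stands directly before HOX genes of different behaviour, the 250 bases before the start site are printed for 5 members: HOXD10, HOXD13 and HOXD8, which were strongly expressed in DMS153 and near 0 in MRC5, HOXA9 from the second cluster with that pattern, and HOXC4, whose cluster was near 0 in DMS153. The sequences are from RefSeq on GRCh38.p14, on the strand of the gene, and capitals mark CACGTG and CCAAT on either strand (ATTGG where CCAAT lies on the other strand). They were chosen after the expression values and the sequences had been seen.

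HOXD13 (chr2:176092471-176092720, plus strand): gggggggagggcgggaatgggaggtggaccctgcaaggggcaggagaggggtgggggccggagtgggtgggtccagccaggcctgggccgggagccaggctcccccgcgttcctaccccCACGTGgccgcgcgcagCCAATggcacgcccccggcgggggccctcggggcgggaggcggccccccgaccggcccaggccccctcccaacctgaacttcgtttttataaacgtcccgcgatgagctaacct

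HOXD10 (chr2:176116528-176116777, plus strand): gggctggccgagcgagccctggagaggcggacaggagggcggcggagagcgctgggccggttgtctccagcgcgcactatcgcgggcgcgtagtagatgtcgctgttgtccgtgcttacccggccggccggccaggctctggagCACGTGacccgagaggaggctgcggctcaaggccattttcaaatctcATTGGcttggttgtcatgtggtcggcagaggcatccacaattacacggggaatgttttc

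HOXD8 (chr2:176129455-176129704, plus strand): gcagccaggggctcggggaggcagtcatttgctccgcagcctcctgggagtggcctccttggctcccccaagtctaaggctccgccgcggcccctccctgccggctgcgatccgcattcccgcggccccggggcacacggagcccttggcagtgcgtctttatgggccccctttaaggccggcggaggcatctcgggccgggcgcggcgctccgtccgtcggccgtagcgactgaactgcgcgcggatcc

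HOXA9 (chr7:27165538-27165787, minus strand): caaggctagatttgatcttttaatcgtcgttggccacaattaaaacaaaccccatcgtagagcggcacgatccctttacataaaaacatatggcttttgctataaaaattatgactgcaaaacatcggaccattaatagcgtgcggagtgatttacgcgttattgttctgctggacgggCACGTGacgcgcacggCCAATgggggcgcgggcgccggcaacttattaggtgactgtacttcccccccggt

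HOXC4 (chr12:54016638-54016887, plus strand): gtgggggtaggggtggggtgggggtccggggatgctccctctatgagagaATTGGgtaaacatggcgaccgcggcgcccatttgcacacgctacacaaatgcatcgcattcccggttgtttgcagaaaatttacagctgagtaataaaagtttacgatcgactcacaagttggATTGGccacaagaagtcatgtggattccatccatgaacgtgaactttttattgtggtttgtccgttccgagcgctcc

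The HOXC4 window is also the one listed for HOXC5, and the HOXD8 window holds neither of the marked motifs. Windows were listed for 20 of the 39 members (9 of HOXA, 1 of HOXB, 2 of HOXC and 8 of HOXD), which gave 26 distinct windows. CCAAT, on either strand, lay in 17 of the 26 and in 32% of 34941 windows of that length over all genes. CACGTG, which reads the same on both strands, lay in 8 of the 26, of which 5 were among the 8 HOXD windows, and in 6.32% of all windows. It was added to the search after it had been seen in HOXD windows. TGATNNAT lay in 3 of the 26 HOX windows (6.49% of all) and TATAAA in 5 (10.8% of all), both on either strand, and a window could hold more than 1 of the motifs. The HOX windows held a median of 19.5 CpG dinucleotides, against 11 over all windows. Neighbouring windows lie in the same 4 clusters, so the windows are not independent of each other, and a match of letters is not a binding site.

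The 3 lines differed in how their summed HOX level was divided among the clusters. HOXD genes made up 69.1% ± 0.977 (SD, n = 3) of the summed HOX FPKM in DMS153, 35.1% ± 1.75 (n = 2) in H209 and 0.0597% ± 0.0424 (n = 3) in MRC5. In MRC5, HOXB genes held 84.6% ± 0.322, against 22.1% ± 0.684 in DMS153 and 38.6% ± 0.661 in H209. HOXA genes held 8.76% ± 0.425, 22.3% ± 1.17 and 12.9% ± 0.241 in DMS153, H209 and MRC5, and HOXC genes 0.0653% ± 0.0108, 4.06% ± 0.0849 and 2.52% ± 0.214. These shares lie within a library and do not depend on how libraries were scaled against each other. The sum over all 39 genes came to 384 ± 20.2 FPKM for DMS153, 391 ± 10.1 for H209 and 89.8 ± 10.2 for MRC5. In the deposited FPKM the summed levels of the carcinoma lines thus overlapped while their make-up did not. Unlike the shares, the sums depend on how libraries were scaled against each other.

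**Figure D1:**
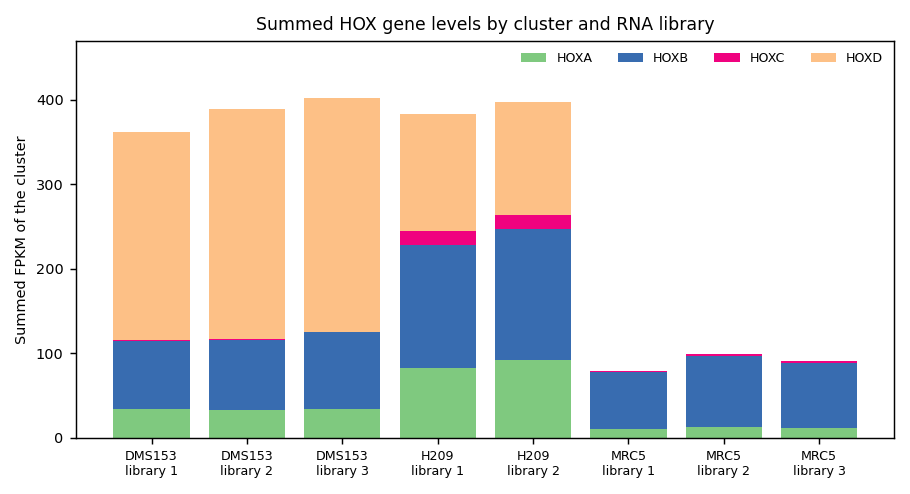
Summed FPKM of the genes of each HOX cluster (vertical axis) in each of the 8 RNA libraries (bars, stacked by cluster, no error bars because each bar is 1 library). The 3 DMS153 bars are mostly HOXD, the 2 H209 bars are split between HOXB, HOXD and HOXA, and the 3 MRC5 bars are mostly HOXB with no visible HOXD.

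At 1 FPKM or more in every library of a line, 22 HOX genes were found in DMS153, 28 in H209 and 11 in MRC5. MRC5 had none of the 16 genes numbered 9 to 13 at that level, whereas DMS153 and H209 had 9 each. Of the 15 genes numbered 4 to 8, DMS153 had 9, H209 13 and MRC5 8. Of the 8 genes numbered 1 to 3, the counts were 4, 6 and 3. Genes at that level in all 3 lines were HOXA5 and the run HOXB2 to HOXB8, and 12 genes reached it in both carcinoma lines and not in MRC5: HOXA6, HOXA9, HOXA10, HOXB9 and every HOXD gene but HOXD12. HOXB13 and HOXD12 reached it in DMS153 alone, HOXA2, HOXC4, HOXC6, HOXC9 and HOXC10 in H209 alone, and HOXA3, HOXA4 and HOXA7 in H209 and MRC5. Among those that reached it in no line were HOXA13, HOXB1, HOXC5, HOXC11, HOXC12 and HOXC13.

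**Figure D2:**
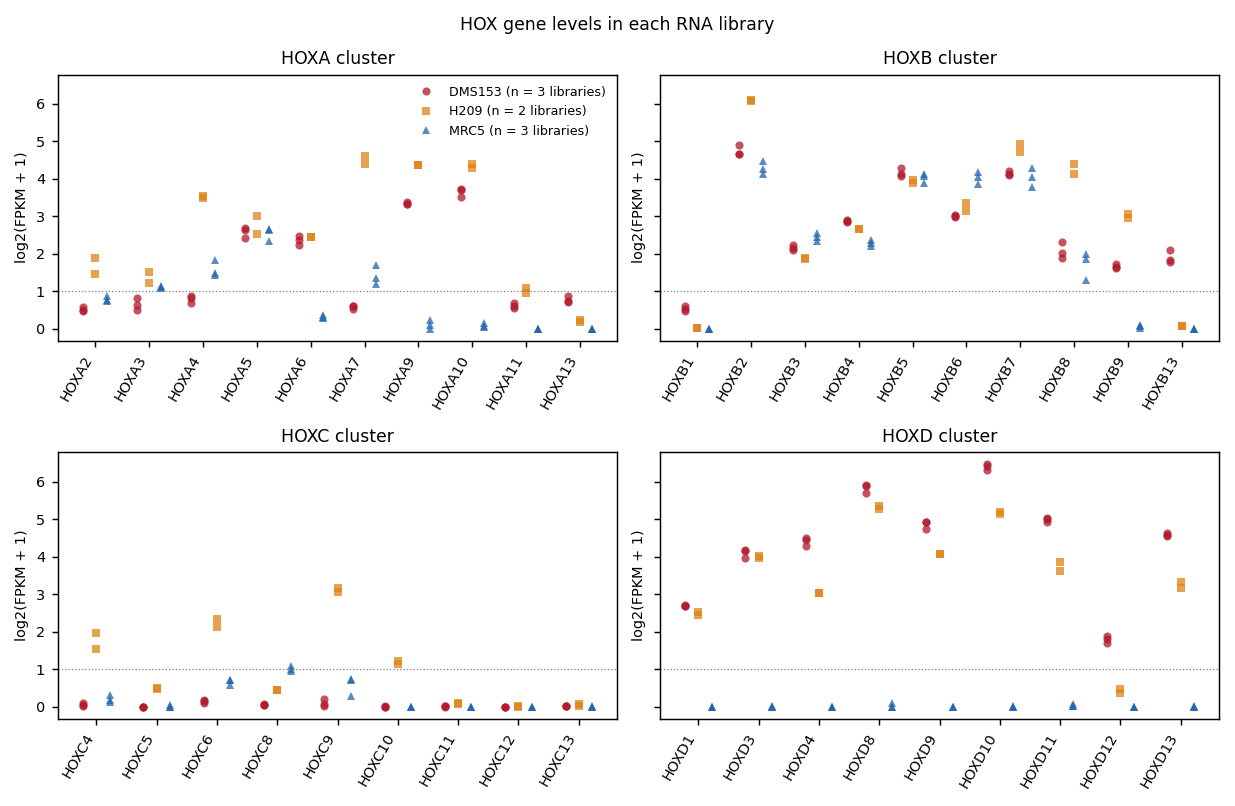
Level of HOX genes (1 member is not drawn) as log2(FPKM + 1) (vertical axis) in each RNA library (1 point each), by cluster and in order of gene number (horizontal axis); the dotted line marks 1 FPKM. All 9 HOXD genes lie near 0 in MRC5, HOXB2 to HOXB8 lie above the line in all lines, and 4 HOXC genes rise above it in H209.

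Levels were compared with limma on log2(FPKM + 1) in 1 fit over the 8 libraries and 19066 genes that reached 1 FPKM in at least 2 of them. A gene was called when its p-value, adjusted by Benjamini-Hochberg over all those genes, was below 0.05 and its difference was at least 1 on that log2 scale, which understates the change of low genes. Of the 39 members 31 were tested, and the 8 that stayed under the minimum included HOXA11, HOXA13, HOXB1, HOXC5, HOXC11, HOXC12 and HOXC13. A gene near 0 in 1 line was tested only because another line carried it, so the counts of tested members are a description. Both comparisons with MRC5 use the same 3 MRC5 libraries.

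In DMS153 against MRC5, 14 HOX genes were called higher and 1 lower, where 34.0% of all genes tested were called higher and 16.4% lower. In H209 against MRC5, 20 were called higher and none lower, where the shares over all genes were 33.0% and 14.9%. The median difference over tested HOX genes was 0.45 in DMS153 and 1.93 in H209 on the log2 scale, beside 0.44 and 0.46 over all tested genes. In DMS153 against H209, 6 HOX genes were called higher and 11 lower, beside 13.8% and 13.4% of all genes, and the median difference was -0.24 beside -0.04. The split depends on how libraries are scaled: higher and lower HOX calls were 14 and 4, 22 and 0, and 2 and 14 with TPM scaling, and 13 and 8, 17 and 3, and 6 and 10 with quantile normalization, in the same order of comparisons. A pseudocount of 5 in place of 1 ended the calls of HOXA6, HOXB6, HOXB9, HOXB13 and HOXD12 in DMS153 against MRC5, of HOXA6, HOXC4, HOXC6, HOXC10 and HOXD1 in H209 against MRC5, and of HOXA2, HOXA9, HOXB9, HOXB13, HOXC4, HOXC6, HOXC10 and HOXD12 between the carcinoma lines. Quantile normalization ended those of HOXB9 in DMS153 and of HOXC4, HOXC6 and HOXC10 in H209 against MRC5, and of HOXC10 between the carcinoma lines. The libraries of the compared groups did not overlap for 30, 36 and 34 of the 39 members, where 87.3%, 88.1% and 82.3% of all genes tested did not overlap. The member counts include the 8 members that were not tested, so the sets are not alike.

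HOXD is the cluster that patterns the limb and the hind end of the body, and its 9 genes were called higher in DMS153 than in MRC5, the list's median difference being 4.58. In H209, 8 of the 9 were called higher than in MRC5, with a median of 3.71. HOXD1, HOXD4, HOXD9 and HOXD12 were listed at 0 in every MRC5 library, and the highest value of any HOXD gene there was 0.0754 FPKM, of HOXD8.

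At the high-numbered end, HOXD13, the gene whose mutation causes fused digits, was at 22.5, 22.8 and 23.6 FPKM in the DMS153 libraries, 7.89 and 8.95 in H209 and 0, 0.0132 and 0 in MRC5. No libraries of different lines overlapped, and the difference to MRC5 was 4.58 ± 0.07 in DMS153 (SE, limma adjusted p = 3.70e-11) and 3.23 ± 0.08 in H209 (limma adjusted p = 9.40e-10). HOXD12 stood at 2.22, 2.49 and 2.69 FPKM in DMS153 and at 0.376 and 0.280 in H209, all above the MRC5 libraries, which were listed at 0. It was the HOXD gene not called in H209 (0.41 ± 0.08, limma adjusted p = 0.00134), and a pseudocount of 0.1 gave it a call there (2.09). HOXD11 stood at 29.4, 31.3 and 31.5 FPKM in DMS153, 13.6 and 11.2 in H209 and at most 0.0518 in MRC5.

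HOXD10, which with HOXD11 and HOXD13 shapes the limb, was the highest HOX gene of DMS153. Its values were 77.8, 85.3 and 87.2 FPKM in DMS153, 35.5 and 34.3 in H209, and 0, 0.00245 and 0 in MRC5. The lines stood apart in all libraries, and HOXD10 gave the largest difference of any HOX gene to MRC5, 6.40 ± 0.07 in DMS153 (SE, limma adjusted p = 3.46e-12) and 5.16 ± 0.07 in H209 (limma adjusted p = 4.98e-11).

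HOXD9 was at 25.6, 29.6 and 29.2 FPKM in DMS153 and 15.7 and 15.8 in H209. HOXD8, in the middle of the cluster, was at 51.0, 58.1 and 58.8 FPKM in DMS153, 39.7 and 37.4 in H209 and 0, 0.0754 and 0 in MRC5. Both were called higher than in MRC5 in each carcinoma line, HOXD8 by 5.79 ± 0.08 in DMS153 and 5.27 ± 0.09 in H209 (SE, limma adjusted p = 1.40e-11 and 8.95e-11).

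At the low-numbered end, HOXD4 was at 18.4, 20.9 and 21.4 FPKM in DMS153 and 7.16 and 7.21 in H209. HOXD3 was at 14.6, 16.8 and 17.0 FPKM in DMS153 and at 14.5 and 15.1 in H209, and HOXD1 at 5.38, 5.51 and 5.47 and at 4.78 and 4.47. The carcinoma lines thus overlapped for HOXD3 alone among the 9 genes.

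Between the carcinoma lines the HOXD genes were not shifted by 1 factor. The mean level in DMS153 divided by that in H209 was 1.09 for HOXD3, 1.18 for HOXD1, 1.45 for HOXD8, 1.78 for HOXD9, 2.39 for HOXD10, 2.48 for HOXD11, 2.73 for HOXD13, 2.81 for HOXD4 and 7.52 for HOXD12. HOXD4, HOXD10, HOXD11, HOXD12 and HOXD13 were called higher in DMS153, by 1.23 to 1.38 on the log2 scale, and the other 4 were not called. Rescaling every library to the same summed FPKM (TPM), which moved the median of all tested genes to -0.60 and the HOXD4, HOXD10, HOXD11 and HOXD13 differences to 0.79, 0.60, 0.64 and 0.76, ended those calls and turned HOXD1, HOXD3 and HOXD8 to -0.36, -0.51 and -0.11. The sum that this rescaling uses contains the microRNA loci that held 39.4 to 43.7% of it in DMS153.

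Shares within the cluster do not depend on that scaling. HOXD3 made up 6.06% ± 0.137 (SD, n = 3) of the summed HOXD FPKM in DMS153 and 10.8% ± 0.554 (n = 2) in H209, and HOXD8 21.1% ± 0.356 and 28.1% ± 0.510. HOXD10 made up 31.4% ± 0.134 and 25.5% ± 0.0410, HOXD13 8.67% ± 0.399 and 6.16% ± 0.697, HOXD12 0.927% ± 0.0392 and 0.239% ± 0.0442, and HOXD4 7.60% ± 0.151 and 5.25% ± 0.151. For each of these 6 genes the libraries of the carcinoma lines did not overlap in share. No test was made on the shares.

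**Figure D3:**
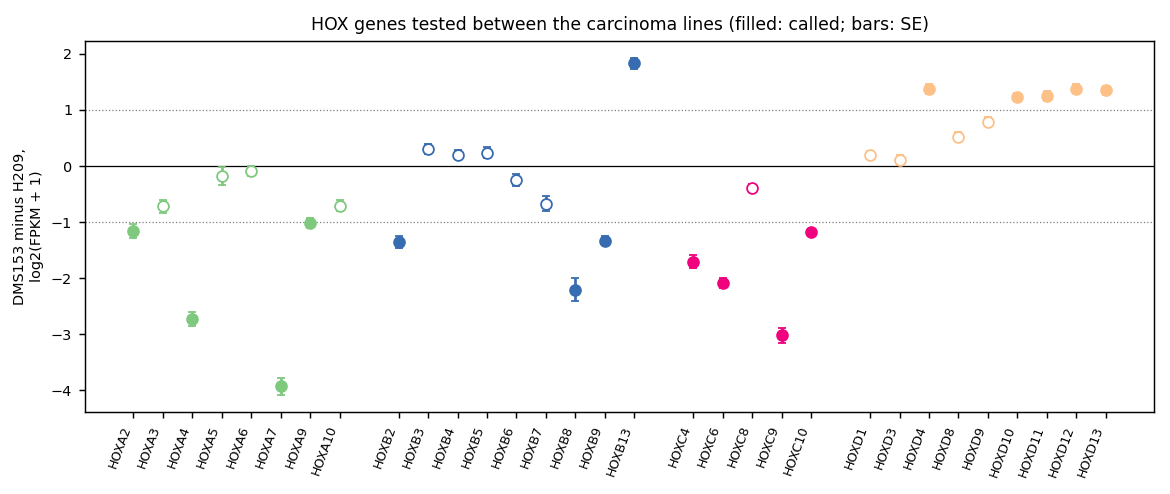
Difference between DMS153 and H209 on the log2(FPKM + 1) scale (vertical axis) for the 31 tested HOX genes in order of cluster and number (horizontal axis); points are limma estimates from 3 and 2 libraries, bars their SE, filled points the called genes and dotted lines the minimum of 1. Called HOXA and HOXC genes lie below 0, down to -3.93 for HOXA7, and called HOXD genes above 0, from 1.23 to 1.38; 4 of those 5 calls end under TPM scaling.

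In HOXA the carcinoma lines shared HOXA6, HOXA9 and HOXA10 and parted at HOXA4 and HOXA7. HOXA9, a gene of blood stem cells that is overexpressed in many leukaemias, was at 9.45, 8.99 and 9.04 FPKM in DMS153, 19.6 and 19.6 in H209, and 0.0690, 0 and 0.169 in MRC5. HOXA10, which acts in the uterus and in blood, was at 10.4, 12.3 and 12.0 FPKM in DMS153, 18.7 and 20.2 in H209 and 0.0515, 0.109 and 0.0355 in MRC5. For both genes MRC5 was lowest and H209 highest with no overlap, and HOXA9 was called lower in DMS153 than in H209 (-1.02 ± 0.09, SE, limma adjusted p = 7.31e-06), a call that ended with a pseudocount of 5 (-0.80), with median ratio scaling (-0.89) and with scaling without small RNA and mitochondrial genes (-0.96). The differences to MRC5 in DMS153 and H209 were 3.24 ± 0.08 and 4.26 ± 0.09 for HOXA9 (SE, limma adjusted p = 5.06e-10 and 3.08e-10) and 3.56 ± 0.08 and 4.26 ± 0.09 for HOXA10 (limma adjusted p = 4.00e-10 and 4.24e-10).

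HOXA6 was at 4.56, 3.69 and 4.20 FPKM in DMS153, 4.45 and 4.46 in H209 and 0.292, 0.224 and 0.245 in MRC5, so the carcinoma lines overlapped and both lay above MRC5. It was called higher in both, by 2.04 ± 0.08 and 2.12 ± 0.09 (SE, limma adjusted p = 1.38e-08 and 2.93e-08).

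HOXA7 was at 0.537, 0.433 and 0.509 FPKM in DMS153, 19.9 and 23.7 in H209 and 1.27, 2.26 and 1.55 in MRC5. H209 lay above MRC5 by 3.09 ± 0.15 (SE, limma adjusted p = 6.20e-08), while DMS153 lay below MRC5 with a difference of -0.83 ± 0.13 that missed the minimum and passed it with a pseudocount of 0.1 (-1.56) and with median ratio, quantile and TPM scaling (-1.18, -1.59 and -1.21). HOXA4 had the same order, at 0.756, 0.597 and 0.837 FPKM in DMS153, 10.2 and 10.7 in H209 and 1.82, 2.55 and 1.71 in MRC5. Its difference between DMS153 and MRC5 (-0.80) passed the minimum under the same settings (-1.35, -1.18, -1.60 and -1.18). Between the carcinoma lines the differences were -3.93 ± 0.15 for HOXA7 and -2.73 ± 0.13 for HOXA4 (SE, limma adjusted p = 4.74e-08 and 1.51e-07). HOXA7 was 25.0% ± 1.09 (SD, n = 2) of the summed HOXA level in H209 and 1.46% ± 0.148 (n = 3) in DMS153.

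HOXA5, a gene needed for lung development, did not separate the lines. Its values were 5.44, 4.40 and 5.25 FPKM in DMS153, 4.79 and 7.03 in H209 and 4.03, 5.26 and 5.35 in MRC5, and all 3 lines overlapped. It was 42.2% ± 3.28 (SD, n = 3) of the HOXA sum in MRC5 and the largest HOXA gene there, and 14.9% ± 1.51 in DMS153.

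HOXA2 and HOXA3, which pattern the hindbrain and the arches, stayed under 3 FPKM everywhere. HOXA2 was at 0.382 to 0.496 FPKM in DMS153, 1.75 and 2.71 in H209 and 0.683 to 0.831 in MRC5, and was called lower in DMS153 than in H209 (-1.16 ± 0.12, SE, limma adjusted p = 2.78e-05), a call that ended with median ratio scaling (-0.9987) and a pseudocount of 5 (-0.41). HOXA3 was at 0.403 to 0.780, 1.34 and 1.87, and 1.14 to 1.19 FPKM, with no call as reported, and passed the minimum below MRC5 with quantile normalization (-1.26) and below H209 with a pseudocount of 0.1 (-1.34) and TPM scaling (-1.25) in DMS153. At the far end HOXA11 was listed at 0 in every MRC5 library and stood at 0.468 to 0.597 FPKM in DMS153 and 0.944 and 1.14 in H209, and HOXA13 was at 0.632 to 0.821 FPKM in DMS153, 0.184 and 0.132 in H209 and at most 0.00328 in MRC5.

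HOXB was the cluster that MRC5 used most, and HOXB2 to HOXB8 were on in every line. HOXB2, a hindbrain gene and the highest HOX gene of both H209 and MRC5, was at 24.5, 24.2 and 28.7 FPKM in DMS153, 67.6 and 66.9 in H209 and 16.4, 21.1 and 18.3 in MRC5. H209 stood apart above the other lines, 1.81 ± 0.11 over MRC5 (SE, limma adjusted p = 3.36e-07), and DMS153 was called lower than H209 by -1.35 ± 0.11 (limma adjusted p = 5.30e-06).

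HOXB3, HOXB4, HOXB5 and HOXB7 differed by less than the minimum in every comparison as reported. Under other scalings HOXB3 passed it in H209 against MRC5 (-1.17 with median ratio scaling and -1.19 with quantile normalization). HOXB7 passed it with TPM scaling in H209 against MRC5 (1.01) and in DMS153 against H209 (-1.32), and without small RNA and mitochondrial genes in H209 against MRC5 (1.0048). HOXB5, a gene active in the lung and the gut wall, was at 15.8, 16.6 and 18.5 FPKM in DMS153, 13.8 and 14.7 in H209 and 13.9, 16.6 and 15.8 in MRC5, where MRC5 overlapped both. HOXB6 was at 7.14, 6.99 and 6.95 FPKM in DMS153, 7.76 and 9.31 in H209 and 13.6, 17.2 and 15.6 in MRC5. It was the 1 HOX gene called lower in DMS153 than in MRC5 (-1.03 ± 0.10, SE, limma adjusted p = 6.30e-06). That call ended without MRC5 replicate 2 (-0.95), with a pseudocount of 5 (-0.76) and when libraries were scaled without small RNA and mitochondrial genes (-0.75). In H209 the difference of -0.79 passed the minimum with median ratio scaling (-1.48) and quantile normalization (-1.17). As a share of the HOXB sum, which needs no scaling, HOXB6 was 20.4% ± 0.225 (SD, n = 3) in MRC5, 8.30% ± 0.548 in DMS153 and 5.65% ± 0.483 (n = 2) in H209. A share also falls when other genes of the cluster rise. The HOXB sum averaged 75.9 FPKM in MRC5, 84.9 in DMS153 and 151 in H209.

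HOXB8, a gene of myeloid cells and the trunk, was at 3.03, 3.95 and 2.67 FPKM in DMS153, 16.6 and 20.1 in H209 and 1.48, 2.96 and 2.62 in MRC5. DMS153 and MRC5 overlapped and H209 lay above both, by 2.55 ± 0.21 over MRC5 (SE, limma adjusted p = 2.26e-06). HOXB9, the next gene outward, was at 2.12, 2.09 and 2.34 FPKM in DMS153, 7.29 and 6.78 in H209 and at most 0.0741 in MRC5. It was called higher than in MRC5 in both lines, by 1.60 ± 0.07 and 2.94 ± 0.08 (SE, limma adjusted p = 2.84e-08 and 1.55e-09).

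HOXB13 lies apart from the rest of its cluster and is known as a gene of the prostate and the distal colon. It was at 2.58, 2.42 and 3.28 FPKM in DMS153, 0.0553 and 0.0443 in H209, and 0, 0 and 0.000563 in MRC5. DMS153 was called higher than both, by 1.90 ± 0.09 over MRC5 and 1.83 ± 0.10 over H209 (SE, limma adjusted p = 4.10e-08 and 4.04e-07). Its neighbours PRAC2 and TTLL6 were also highest in DMS153. PRAC2, whose locus overlaps HOXB13, was at 4.58, 4.85 and 4.79 FPKM in DMS153, at most 0.0313 in H209 and 0 in MRC5. TTLL6 was at 7.31 ± 1.79 FPKM (SD, n = 3) in DMS153, at most 0.187 in H209 and at most 0.0476 in MRC5, with H209 and MRC5 overlapping. ATP5G1, farther out, did not share that order, with means of 59.8, 32.95 and 56.2 FPKM in DMS153, H209 and MRC5. Its DMS153 and MRC5 libraries overlapped. HOXB1, at the other end, was at 0.400 to 0.511 FPKM in DMS153, 0.0175 and 0.0159 in H209 and 0 in MRC5.

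HOXC genes were carried by H209. HOXC9, a trunk gene and the highest of the cluster, was at 7.32 and 7.97 FPKM in H209, 0.0126, 0.0417 and 0.146 in DMS153 and 0.213, 0.632 and 0.654 in MRC5. The lines did not overlap, and H209 was called higher than MRC5 by 2.54 ± 0.14 (SE, limma adjusted p = 1.45e-07) and DMS153 lower than H209 by -3.02 ± 0.14 (limma adjusted p = 1.44e-07).

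HOXC6 was at 3.39 and 4.03 FPKM in H209, 0.117, 0.127 and 0.0629 in DMS153 and 0.638, 0.485 and 0.634 in MRC5. HOXC4 was at 2.89 and 1.89 FPKM in H209, at most 0.0584 in DMS153 and at most 0.241 in MRC5, and HOXC10 at 1.33 and 1.22 in H209, at most 0.00381 in DMS153 and 0 in MRC5. All 3 were called higher in H209 than in MRC5, by 1.57 ± 0.09, 1.55 ± 0.12 and 1.18 ± 0.06 (SE, limma adjusted p = 1.96e-07, 2.06e-06 and 1.45e-07), with no overlap between those lines.

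HOXC8 had another order, at 0.914, 1.01 and 1.13 FPKM in MRC5, 0.368 and 0.357 in H209 and 0.0248, 0.0342 and 0.0501 in DMS153, and was not called in any comparison as reported. Its difference between DMS153 and MRC5, -0.96 ± 0.07, lay near the minimum and passed it with a pseudocount of 0.1 (-3.04) and with median ratio, quantile and TPM scaling (-1.20, -1.49 and -1.35). With a pseudocount of 0.1 it also passed in H209 against MRC5 (-1.27) and in DMS153 against H209 (-1.77), and with quantile normalization in H209 against MRC5 (-1.13). HOXC5 was at 0.387 and 0.408 FPKM in H209 and at most 0.0195 in the other libraries. HOXC11, HOXC12 and HOXC13 were at 0.0694 FPKM or less in every library, as was the noncoding HOTAIR, whose locus overlaps HOXC11 (at most 0.0617). Between DMS153 and MRC5 none of the 5 tested HOXC genes reached the minimum difference as reported, although HOXC6 and HOXC9, like HOXC8, did so with a pseudocount of 0.1 (-1.77 and -1.82) and quantile normalization (-1.13 and -1.06). All 9 were at most 0.146 FPKM in DMS153.

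Reads in HOX clusters can belong to more than 1 gene. Of the 39 loci, 36 overlap another listed gene and 20 overlap another HOX gene, and only HOXB1, HOXD12 and HOXD13 overlap none. The strand setting is not given in the sources used here, so reads of a HOX gene and of its antisense partner cannot be told apart. The loci of HOXA3, HOXB3, HOXB7, HOXC4, HOXC6 and HOXD3 span or overlap HOX genes beside them, HOXB7 overlapping HOXB8 and HOXB9, and HOXD10 and HOXD11 overlap each other, so the split between these genes is uncertain.

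Chromatin domains, regions that contact themselves more than their surroundings, were listed once for each line (5023 in DMS153, 3987 in H209 and 3701 in MRC5, on hg19 with a 20 kb grid). There is 1 Hi-C library a line, so the lists are described without a test, and each HOX gene was placed by its midpoint, which never fell into 2 domains. The HOXA and HOXD gaps described below are 1 step of that grid wide, as is the shift of the HOXB end between H209 and MRC5. So is the space between domains that holds HOXC9 and HOXC10 in the 2 carcinoma lists. The midpoints of HOXD10 and HOXD13 lay 0.9 kb from a domain end in each list, that of HOXB9 1.2 kb in H209, and that of HOXC10 1.5 kb in DMS153 and H209. The placing of genes near those edges is therefore uncertain. Within 40 kb of a domain end lay 24 of the 39 HOX genes in DMS153, 30 in H209 and 27 in MRC5, beside 28.8%, 24.8% and 23.9% of all listed genes. Inside a listed domain lay 25 of the 39 HOX genes in DMS153, 30 in H209 and 29 in MRC5. The shares of all listed genes were 53.0%, 53.7% and 51.6%, so lying in no listed domain was common. The 39 genes sit in 4 clusters, so these counts rest on a few domains and their ends.

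HOXD (chr2:176957619-177055688) lay across a gap between domains that was the same in all 3 lists. A domain at chr2:176980000-177519998 held HOXD1, HOXD3, HOXD4, HOXD8 and HOXD9 in each list. HOXD10, HOXD11 and HOXD12 lay in no listed domain in any line, and HOXD13 lay in the domain on the other side, which ended at 176959998 in each list and began at 176540000 in DMS153 and MRC5 and at 176160000 in H209. The genes called higher in DMS153 than in H209 included HOXD4 inside the first domain, the 3 genes of the gap and HOXD13 beyond it. The edges over HOXD were thus the same in MRC5, where every HOXD gene was at or near 0, as in the carcinoma lines, where 9 and 8 of them were at 1 FPKM or more.

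In HOXA, on chromosome 7, a domain began at 27220000 in all lists and held HOXA11 and HOXA13. The domain before it began at 26720000 and ended at 27219998 in DMS153, holding HOXA2 to HOXA10, and at 27199998 in H209 and MRC5, holding HOXA2 to HOXA7 and leaving HOXA9 and HOXA10 in a gap. HOXA9 and HOXA10 were at 8.99 to 12.3 FPKM in DMS153 and at 18.7 to 20.2 in H209, and at most 0.169 in MRC5, so the lists of H209 and MRC5 had the same edges here with different levels. The outer domain ended at 27639998 in DMS153 and at 28139998 in the other lines.

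Over HOXB (chr17:46605888-46806540) the DMS153 list differed from the other lists. In H209 a domain at chr17:46220000-46699998 held HOXB1 to HOXB8, and in MRC5 one at chr17:46220000-46719998 held HOXB1 to HOXB9. No DMS153 domain lay over HOXB1 to HOXB9, of which HOXB2 to HOXB9 were at 2.09 FPKM or more in each DMS153 library. HOXB13 lay in a domain of 140 kb in DMS153 (chr17:46740000-46879998), the line that expressed it, in one of 260 kb in MRC5 (chr17:46720000-46979998) and in none in H209. The 140 kb domain also held PRAC2 and TTLL6. So did the 260 kb domain of MRC5, where both genes were at most 0.0476 FPKM.

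In HOXC (chr12:54332535-54449813) a domain at chr12:54400000-54599998 held HOXC4, HOXC5, HOXC6 and HOXC8 in all lists, and HOXC9 and HOXC10 lay in none. A domain at chr12:54160000-54379998 held HOXC11, HOXC12 and HOXC13 in both carcinoma lists and was not listed in MRC5. The 2 carcinoma lists were therefore the same over HOXC, where H209 and DMS153 differed in level for 4 genes.

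Counted over genes, a domain matched between 2 lists when each covered at least 80% of the other. HOX genes in a matched domain numbered 17 of 39 between DMS153 and MRC5, 26 between H209 and MRC5 and 19 between DMS153 and H209, beside 26.3%, 28.8% and 32.7% of all listed genes. None of the 10 HOXB genes was in a domain matched between DMS153 and either other line, and 8 were between H209 and MRC5.

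**Figure D4:**
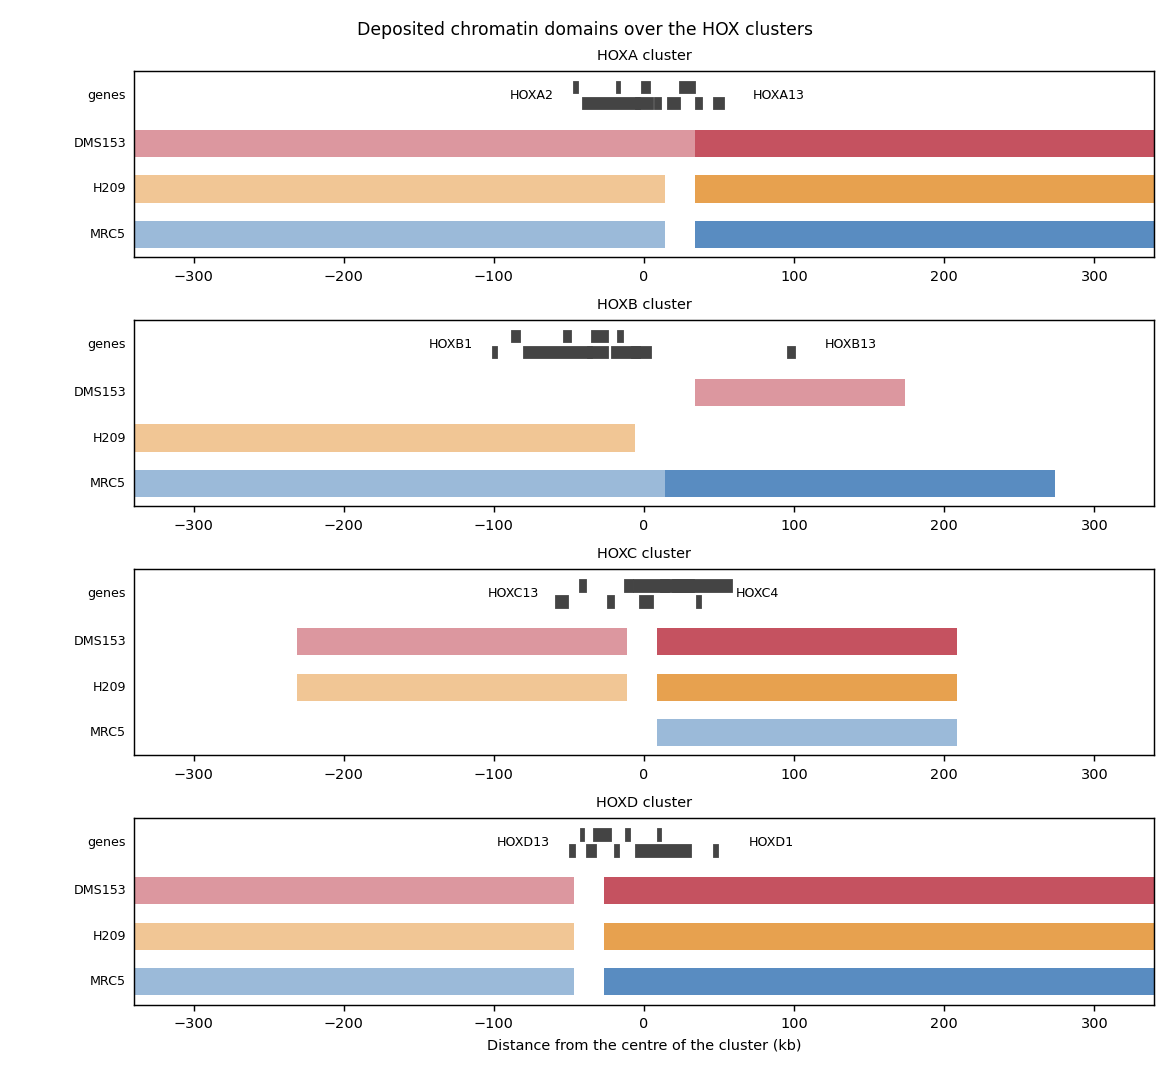
Listed domains of the 3 lines (coloured bars, 1 Hi-C library each, lighter and darker shades for successive domains, cut at the panel edge) over the 4 HOX clusters, with the gene loci above (odd and even numbers on separate levels; the outermost genes drawn are named, and 1 member is not drawn); the horizontal axis is the distance in kb from the centre of the cluster. The inner HOXD edges coincide in all lines, and DMS153 has no bar over HOXB1 to HOXB9.

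HOX proteins bind DNA together with cofactors of the TALE class, the PBX, MEIS and PKNOX proteins. Of 9 such genes, 3 were called higher and 3 lower in DMS153 against MRC5, and 3 higher and 4 lower in H209. Over all genes tested, 34.0% were called higher and 16.4% lower in DMS153 and 33.0% and 14.9% in H209, so the higher calls were at the share of all genes. PBX3 was at 61.9, 54.0 and 61.9 FPKM in DMS153, 32.0 and 32.3 in H209 and 5.99, 7.90 and 6.81 in MRC5. The lines fell into the order DMS153, H209, MRC5 with no overlap. PBX3 and PBX4 were among those called higher in both carcinoma lines than in MRC5, PBX4 not with a pseudocount of 5 (0.62 and 0.78) or quantile normalization (0.65 and 0.97).

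MEIS2 went the other way, at 0.373, 0.772 and 0.575 FPKM in DMS153, 3.22 and 3.32 in H209 and 10.7, 13.8 and 9.76 in MRC5. MEIS2, MEIS3 and PKNOX2 were called lower than in MRC5 in both carcinoma lines, MEIS2 by -2.98 ± 0.14 in DMS153 and -1.53 ± 0.15 in H209 (SE, limma adjusted p = 3.23e-08 and 9.89e-06). A pseudocount of 5 ended the calls of MEIS2 in H209 (-0.98) and of PKNOX2 in DMS153 (-0.41). PKNOX2 in H209 was not followed over the other settings. It was at 0.386 and 0.154 FPKM there and 1.47 to 1.96 in MRC5, too low to reach the minimum with that pseudocount. MEIS1 was called lower in H209 (-1.88 ± 0.10, limma adjusted p = 1.10e-07), and its difference of -0.88 ± 0.09 in DMS153 missed the minimum. Between the carcinoma lines MEIS1 (1.00 ± 0.10) was called higher and MEIS2 (-1.45 ± 0.15) lower in DMS153 (SE, limma adjusted p = 1.70e-05 and 2.56e-05). TPM scaling ended the call of MEIS1 (0.45), and a pseudocount of 5 those of MEIS1 and MEIS2 (0.68 and -0.57). MEIS1 also missed the minimum without DMS153 replicate 2 (0.96) or H209 replicate 2 (0.92).

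**Figure D5:**
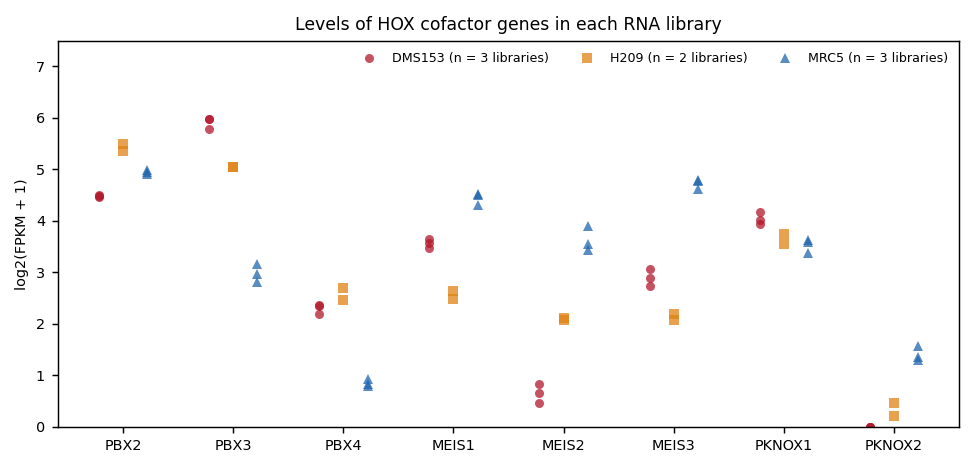
Level of TALE cofactor genes (not all of the list is drawn) as log2(FPKM + 1) (vertical axis) in each RNA library (1 point each). PBX3 is highest in DMS153 and lowest in MRC5, and MEIS1, MEIS2, MEIS3 and PKNOX2 are highest in MRC5.

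The noncoding genes of the clusters were called in both directions. Of 25 listed, 12 were tested, of which 8 were called higher and 2 lower in DMS153 against MRC5 and 4 and 2 in H209, where the shares over all genes were 34.0% and 16.4%, and 33.0% and 14.9%. The H209 counts were near those shares. HOXD-AS1 was at 41.5, 33.9 and 33.0 FPKM in DMS153, 18.4 and 23.2 in H209 and 0 in MRC5, and HOXD-AS2 at 5.37 to 6.66, at 6.96 and 6.67, and at 0. HOXA-AS4, which overlaps HOXA9 and HOXA10, was at 6.04, 7.03 and 6.35 FPKM in DMS153, 14.2 and 14.8 in H209 and 0 in MRC5. HOXB-AS3, which overlaps HOXB3 to HOXB6, was lower in both carcinoma lines, at 6.41, 7.87 and 7.40 FPKM and 2.72 and 2.35 against 18.2, 20.2 and 20.4 in MRC5 (-1.32 ± 0.09 and -2.54 ± 0.10, SE, limma adjusted p = 5.76e-07 and 1.71e-08). HOTAIRM1, which overlaps HOXA2, was at 5.45 to 6.96, 4.98 to 4.99 and 9.19 to 9.95 FPKM in DMS153, H209 and MRC5 and was not called.

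The clusters also hold the miR-10 genes, MIR10B beside HOXD4 and MIR10A beside HOXB4, and they are shown because their hairpins share the seed that sets a microRNA's targets. In the RefSeq sequences (GRCh38.p14) capitals mark the seed of the mature miR-10a-5p, bases 2 to 8, which occurs in the hairpin of MIR10B too.

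hsa-miR-10a-5p: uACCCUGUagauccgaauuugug

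MIR10A hairpin: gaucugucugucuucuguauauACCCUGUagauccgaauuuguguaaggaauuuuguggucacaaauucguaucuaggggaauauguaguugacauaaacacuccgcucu

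MIR10B hairpin: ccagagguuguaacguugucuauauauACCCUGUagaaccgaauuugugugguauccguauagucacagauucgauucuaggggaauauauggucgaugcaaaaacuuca

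The MIR10B locus was at 1074, 1012 and 1180 FPKM in DMS153 and at 0 in all H209 and MRC5 libraries, although HOXD3 and HOXD4, one containing it and the other beside it, were also expressed in H209. The MIR10A entry was at 472, 452 and 458 FPKM in DMS153 and at 0.0961 to 0.746 elsewhere. That entry spans 46656992 to 46659621 on chromosome 17 and overlaps HOXB3 and HOXB4, so its value is not that of the hairpin alone. MicroRNA loci as a class held 39.4 to 43.7% of the summed FPKM in DMS153 and at most 0.0192% elsewhere, which moves with these values, and its part in them was not tested. MIR196B in HOXA was listed at 0 in all libraries, and MIR196A2 in HOXC was at most 0.0512 FPKM.

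Of the genes that keep HOX clusters on or off, 12 on the trithorax side were tested. In DMS153 7 were called higher than in MRC5 and in H209 9, and none was lower, beside 34.0% and 33.0% of all genes called higher and 16.4% and 14.9% lower. KMT2A, the histone methyltransferase whose fusions raise HOXA9 in leukaemia, was at 36.6, 39.1 and 34.4 FPKM in DMS153, 27.2 and 24.5 in H209 and 7.69, 5.05 and 6.75 in MRC5, with no overlap between lines. On the Polycomb side 9 of 21 were called higher in DMS153 and 13 in H209, with none lower, and the DMS153 count was not far from the 34.0% of all genes. EZH2, the methyltransferase of Polycomb repressive complex 2, was at 52.5 to 59.4 FPKM in DMS153, 55.2 and 58.2 in H209 and 1.81 to 2.23 in MRC5. CBX2, a reader of its mark, was at 14.6 to 18.9, 24.0 and 24.7, and 0.596 to 0.936 FPKM. The medians over the trithorax list were 1.20 and 1.29, and over the Polycomb list 0.87 and 1.22, in DMS153 and H209, beside 0.44 and 0.46 over all tested genes.

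Retinoic acid turns on HOX genes from the low-numbered end in the embryo. Of 14 tested genes of retinoid handling and axial signals, 6 were called higher and 2 lower in DMS153 and 7 and 3 in H209, against MRC5, and the DMS153 counts were near the 34.0% and 16.4% of all genes (33.0% and 14.9% in H209). The receptor gene RARG was lower in both, at 0.293, 0.331 and 0.518 FPKM in DMS153 and 1.94 and 1.38 in H209 against 14.1 ± 0.958 (SD, n = 3) in MRC5. CRABP1, which binds retinoic acid in the cytoplasm, was listed at 0 in MRC5 and stood at 14.2, 12.0 and 11.2 FPKM in DMS153 and 10.3 and 10.8 in H209. CRABP2 parted the carcinoma lines, at 45.4, 38.6 and 53.7 FPKM in DMS153 and 5.96 and 6.62 in H209.

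Of 18 tested genes around the clusters, 7 were called higher and 2 lower in DMS153 and 5 and 2 in H209 against MRC5. These counts were near the shares of all genes, 34.0% and 16.4% in DMS153 and 33.0% and 14.9% in H209. MTX2, in the same domain as the low-numbered HOXD genes, was at 39.7 to 41.9 FPKM in DMS153, 37.2 and 38.4 in H209 and 24.9 to 27.3 in MRC5 and was not called, and KIAA1715, in the domain of HOXD13, was at 18.7 to 19.7, 12.7 to 14.5 and 11.9 to 13.9 FPKM with no call. The domain of MTX2 held 9 tested genes that are not HOX genes, HOXD-AS1, HOXD-AS2 and MIR10B among them. Of those 9, 8 were called higher in DMS153 and 5 in H209 against MRC5, and none lower. The shares of all genes called higher were 34.0% and 33.0%. SKAP1, beyond HOXB1, was at 16.2 to 18.2 FPKM in DMS153, 7.24 and 8.49 in H209 and at most 0.004 in MRC5. EVX1 and EVX2, the even-skipped genes at the outer ends of HOXA and HOXD, stayed under the minimum for testing. EVX1 was at most 0.0336 FPKM in every library. EVX2 was at 0.363 to 0.506 FPKM in DMS153, 0.122 and 0.180 in H209 and at most 0.00148 in MRC5, with no overlap between lines. All 6 ParaHox genes, the relatives of HOX genes outside the clusters, also stayed under that minimum.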

How the data were processed

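Expression and domain files were used as the authors deposited them. Per the file headers, the RNA tables hold FPKM with its confidence bounds and a status for each gene; the deposited domain lists hold hg19 positions and a score whose meaning no source here states. The submitters' processing notes name TopHat2 2.1.0, Cufflinks 2.2.0, Bowtie2, HOMER 4.8 and hg19 without roles; the sources used here do not give the gene annotation, strand setting or domain settings. Depth per library is not in the tables.

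FPKM values were tested with limma 3.58.1 in R 4.3.3 on log2(FPKM + 1) with a mean-variance trend, 1 fit over 8 libraries (5 residual degrees of freedom), for genes at 1 FPKM or more in at least 2 libraries, with Benjamini-Hochberg adjustment. The script was tested on simulated data. HOXC4 has 2 identifiers; the one with the longer locus was used, a choice made after the tables had been read. All HOX genes were described whatever their result; of each context list, at most the 3 called genes with the largest rise and the 3 with the largest fall in a comparison were named by rule. HOTAIR, HOTAIRM1, MIR196A2, MIR196B, MTX2, KIAA1715, ATP5G1, EVX1 and EVX2 were named outside that rule after their values were seen. The members, lists and tests were chosen with earlier results of these data known. Shares of a cluster were computed within each library and were added after seeing the data. Promoter and microRNA sequences are from RefSeq tables on GRCh38.p14, and no position was converted between builds. Some genes are not reported here.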

Additional observations from a re-analysis of the deposited data

Results flagged for a closer look

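For 17 HOX genes the effect against MRC5 differed between the 2 carcinoma lines by the test of that difference itself, which is the contrast of DMS153 with H209 because both effects share the MRC5 libraries. These are the genes called in that comparison, and the values are DMS153 minus H209 on the log2(FPKM + 1) scale. The difference was -1.16 for HOXA2, -2.73 for HOXA4, -3.93 for HOXA7 and -1.02 for HOXA9. It was -1.35 for HOXB2, -2.20 for HOXB8, -1.34 for HOXB9 and 1.83 for HOXB13. It was -1.70 for HOXC4, -2.09 for HOXC6, -3.02 for HOXC9 and -1.18 for HOXC10. It was 1.37 for HOXD4, 1.23 for HOXD10, 1.25 for HOXD11, 1.38 for HOXD12 and 1.35 for HOXD13. For HOXA2, HOXA4, HOXA7, HOXC4, HOXC6 and HOXC9 the fitted effects against MRC5 had opposite signs, below 0 in DMS153 and above 0 in H209, although the DMS153 effect of each missed a call. The H209 effect of HOXA2 (0.88) missed a call too. For HOXC4 the DMS153 effect was -0.15 (limma adjusted p = 0.22), so its sign is uncertain.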

How the results depend on the processing

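Over 20 other settings no called HOX gene changed sign; 10 of 15 calls in DMS153 against MRC5, 15 of 20 in H209 against MRC5 and 5 of 17 between the carcinoma lines held in every setting that tested the gene. The counts of HOX genes called lower in DMS153 against MRC5 were 6 (pseudocount 0.1), 0 (pseudocount 5), 4 (median ratio scaling), 8 (quantile normalization), 4 (scaling to TPM) and 0 (libraries rescaled leaving out small RNA and mitochondrial genes), where 1 was reported. In H209 against MRC5 they were 1, 2 and 3 (pseudocount 0.1, median ratio and quantile), where none was reported. Between the carcinoma lines, TPM scaling gave 2 higher in place of 6, and 5 were lower with a pseudocount of 5 and 7 with a filter of 5 FPKM, which tests 21 members, in place of 11. Leaving out 1 library at a time gave 14 to 14 higher and 0 to 1 lower in DMS153 against MRC5 (0 without MRC5 replicate 2), 16 to 20 higher and 0 to 0 lower in H209 against MRC5, and 6 to 6 higher and 6 to 11 lower between the carcinoma lines, where leaving out either H209 replicate gave 16 and 6 with 26 members tested. In DMS153, 15 genes lay within 20 kb of a domain end and 37 within 100 kb.

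With the replicate number as a block the counts were 14 and 1, 20 and 0, and 6 and 11, and no count changed. Same-numbered libraries of different lines had deviations correlated at -0.012 to 0.124, and differently numbered ones at -0.124 to 0.054. Deviations from the mean of 2 or 3 libraries are tied to each other, so these values cannot show whether the numbers pair the libraries. Median ratio scaling moved the median of all genes in the comparisons with MRC5 from 0.44 and 0.46 to 0.00 and 0.00, where 4710 genes were higher and 4868 lower in DMS153 and 3953 and 4733 in H209; reported were 6489 and 3123, and 6300 and 2839. Quantile normalization gave 4242 and 4432, and 4086 and 3800, and TPM scaling 5651 and 4422 in DMS153 against MRC5 and 1782 and 6319 between the carcinoma lines, where 2622 and 2547 were reported.

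Members without a call changed sign as follows. Against MRC5 in DMS153, median ratio, quantile and TPM scaling gave HOXA5 -0.49, -0.55 and -0.34, HOXB5 -0.47, -0.16 and -0.28, and HOXB7 -0.50, -0.19 and -0.31, and the first 2 gave HOXB8 -0.12 and -0.41. Median ratio scaling gave HOXB2 -0.16 and quantile normalization HOXC10 -0.0177. Leaving out 1 library at a time gave HOXA5 -0.0685 to 0.1176 (-0.0102 without DMS153 replicate 1) and HOXB7 -0.0182 to 0.2251, lowest without MRC5 replicate 1. In H209, median ratio and quantile gave HOXA3 -0.18 and -0.50, HOXA5 -0.42 and -0.35, and HOXB4 -0.24 and -0.24, quantile gave HOXB13 -0.0011, and HOXB5 was 0.10 with TPM and 0.12 without small RNA and mitochondrial genes. HOXA5 was -0.0144 without H209 replicate 2 and 0.4585 without replicate 1. Between the carcinoma lines TPM scaling gave HOXB3 -0.21, HOXB4 -0.37, HOXB5 -0.38, HOXD1 -0.36, HOXD3 -0.51 and HOXD8 -0.11, median ratio scaling HOXA6 0.0136, and leaving out H209 replicate 2 HOXA5 0.0542, against -0.4186 without replicate 1. The cause of these changes was not tested.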
